A study of Mus musculus with 224 samples.

Results

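The soleus and the visceral fat of the same chow-fed mice were compared, animal by animal. The comparison used 70 RNA sequencing libraries, 31.2% of the series: 1 soleus and 1 visceral fat library from each of 35 animals on regular chow (RC). The animals came from 3 inbred strains, DBA/2J, BALB/cJ and C57BL/6J, and were sampled on day 5, 13 or 33 of feeding. Each combination of strain and day held 4 animals, except C57BL/6J on day 33, which held 3. Sex and age of the animals, and the fat depot beyond its label of visceral fat, are not stated in the labels. An animal number marked both tissues of 1 mouse in the labels, and animals were taken as the replicates. Of 36 RC animals with both tissues, C57BL/6J animal 1RC210 of day 33 was left out by the rule that chose the samples. Its soleus library held 376.5 CPM (read counts scaled by library size) over 9 slow fibre markers, against 23470 CPM or more in each of the 35 other soleus libraries.

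Soleus is a postural hindlimb muscle built of slow fibres and fast oxidative fibres. It burns fatty acids and glucose in dense mitochondria and turns the energy into contraction. Visceral fat stores triglyceride in adipocytes, releases it by lipolysis, secretes hormones and is lined by mesothelium. Its stroma holds macrophages and vessels, and lymph nodes and other lymphoid tissue can lie within a dissected piece.

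The soleus libraries held 22.4 to 33.4 M reads with a median of 26.7 M reads, and the fat libraries 20.1 to 46.8 M reads with a median of 25.8 M reads. The deposited tables listed 13637 genes for soleus and 16542 for visceral fat. The 13151 genes in both were compared, after both tissues were put on 1 scale in which the median gene ratio of each library to a common reference is 1. Levels below are log2(CPM + 0.1) on this joint scale, so that -3.32 stands for 0 reads. A difference is the soleus level minus the fat level of the same animal. Errors beside differences are standard errors (SE) over 35 animals. A gene was called when the limma test against a bound of 2-fold gave an adjusted p under 0.05. Every such p below carries a Benjamini-Hochberg adjustment over all 13151 genes. In whole tissue, fewer cells of a type and less RNA per cell cannot be told apart.

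Marker genes matched the tissue labels, and each tissue also held reads of markers of other cells. Slow fibre markers summed to 23470 to 47910 CPM in soleus and 255.9 to 1630 CPM in fat. Fast fibre markers summed to 43810 to 67550 CPM in soleus and 122 to 3574 CPM in fat, with 7 of 35 fat libraries above 1000 CPM. The slow list counts Tpm3 and Atp2a2, and the fast list Tpm1. Their differences were 5.57, 5.92 and 5.40, against medians of 10.62 (slow) and 10.44 (fast). Median fat levels of Myh7, Myl3 and Myh2 were 0.65, 0.49 and 0.49 on the joint scale. The share of each gene in the fat sums was not tested, so these are not read as fibre transcripts alone. Adipocyte markers summed to 2665 to 8646 CPM in soleus and 15770 to 103200 CPM in fat. This list counts Car3 and Plin4, which were not called between the tissues, so its soleus sum is not read as adipocyte transcripts alone. Mesothelial markers summed to 2.63 to 29.6 CPM in soleus and 141 to 1468 CPM in fat. Smooth muscle markers reached 17850 CPM in 1 fat library, against a median of 478 CPM over the fat libraries. No testis or epididymis marker of 7 stood in either table.

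Lymphoid tissue was present in part of the fat libraries. The 11 B cell markers summed to 0.277 to 31.5 CPM in soleus and 7.16 to 3305 CPM in fat. Their mean level in fat, as deposited log2 CPM, was 5.87 to 8.10 in 20 animals and -0.57 to 2.54 in the other 15, with no library between. The strains were unequal in this: 3 of 12 DBA/2J, 8 of 12 BALB/cJ and 9 of 11 C57BL/6J fat libraries stood above 4. Counts were therefore also made in the 15 animals of low B cell level, which were 9 DBA/2J, 4 BALB/cJ and 2 C57BL/6J.

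**Figure D1:**
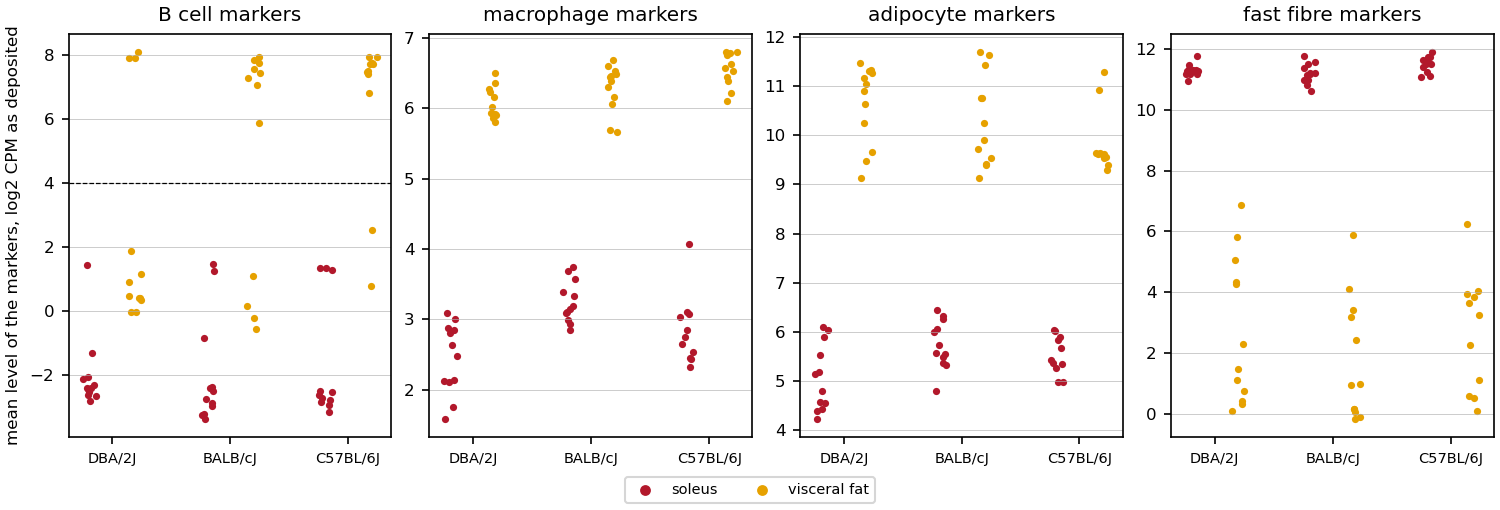
Mean level (deposited log2 CPM) of 4 marker lists in each soleus library (red) and visceral fat library (yellow), by strain. Each point is 1 animal. B cell markers in fat form an upper group of 20 libraries (5.87 to 8.10) and a lower group of 15 (-0.57 to 2.54); the dashed line is at 4.

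Of 13151 genes, 2378 (18.1%) were called higher in soleus and 2472 (18.8%) lower in soleus. The called genes with 1 sign in all 35 animals numbered 4005 of 4850. At any size of difference, 11738 genes (89.3%) passed. Of the genes called higher, 16% had a difference above 4 on the log2 scale, and of those called lower, 9.14% had one below -4. The libraries of the tissues did not overlap at all for 2229 genes higher in soleus (16.9%) and for 1466 genes lower in soleus (11.1%). Within each strain alone, 99.9% of the 4850 called genes kept their direction. Within each of 3 ranges of animal numbers (lower, middle and upper, with 15, 11 and 9 animals) 100.0% did. The genes were called in these same animals, so this agreement is largely set by the choice of genes and is no separate support. In the 15 animals of low B cell level, 2022 genes (15.4%) were called higher and 2136 (16.2%) lower, and 3598 genes were called in the same direction in both sets.

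The split between higher and lower rests on how the tissues are set on 1 scale. The median gene differed by -0.03 on the joint scale, by -0.93 in the values as deposited and by -0.92 with equal library totals. With the deposited values, 1160 genes were called higher in soleus and 5629 lower. Equal library totals gave 1179 and 5501. Differences below are relative to the joint scale. Where a list's count of calls moved with the scale, the count with the deposited values stands beside it. List counts are to be read against all 13151 genes, of which 18.1% were called higher and 18.8% lower on the joint scale. With the deposited values that background is 1160 and 5629 genes, and in the 15 animals of low B cell level 15.4% and 16.2%.

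Contractile genes led the differences. All 14 genes of the thick filament and myosin light chain list and all 21 of the thin filament and Z disc list were called higher in soleus. Their median differences were 10.36 and 10.52 on the log2 scale, against -0.03 over all genes. Among genes at or above the median level, the 12 of highest difference were Myh2, Myh7, Atp2a1, Myh1, Xirp2, Mb, Ckmt2, Myot, Mybpc1, Myl3, Lmod2 and Nrap, with differences of 12.78 down to 11.42.

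Myh2, the fast oxidative (type IIa) myosin heavy chain, had levels of 13.41, 14.04 and 14.32 in soleus (lowest, median, highest) and -3.32, 0.49 and 7.40 in fat. Every soleus library stood above every fat library, and the fat libraries spread over a far wider range. The difference was 12.78 ± 0.38 (SE; limma adjusted p 4.45e-22; higher in 35 of 35 animals). Myh7, the slow (type I) heavy chain, had 12.61, 13.56 and 14.28 in soleus against -3.32, 0.65 and 7.93 in fat, a difference of 12.39 ± 0.38 (adjusted p 1.14e-21). Myh1, the type IIx chain, had 11.40, 12.94 and 13.67 in soleus and -3.32, -0.58 and 6.98 in fat. Myh4, the glycolytic type IIb chain, was the most variable of the 4 in soleus, with 6.12, 9.49 and 12.29, against -3.32, -1.09 and 5.58 in fat. The 4 chains are long, similar and clustered in part, so reads may be shared between them.

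Light chains and regulatory proteins followed the same pattern. Myl3, the slow ventricular essential light chain, had 11.73, 12.47 and 13.03 in soleus and -3.32, 0.49 and 6.76 in fat. Mybpc1, slow myosin-binding protein C, had 12.63, 13.00 and 13.23 in soleus and -2.57, 0.79 and 7.15 in fat. Neither gene overlapped between the tissues. The slow troponin T gene Tnnt1 differed by 10.33 ± 0.26 and its fast counterpart Tnnt3 by 10.84 ± 0.32 (adjusted p 1.42e-23 and 5.36e-22). Among Z disc genes, Myot (myotilin) differed by 11.80 ± 0.34, Actn2 (alpha-actinin 2) by 11.34 ± 0.35, Tcap (telethonin) by 11.28 ± 0.31 and Myoz2 (calsarcin 1) by 11.24 ± 0.31. Nrap and Lmod2, which act in myofibril and thin filament assembly, differed by 11.42 ± 0.29 and 11.45 ± 0.32.

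**Figure D2:**
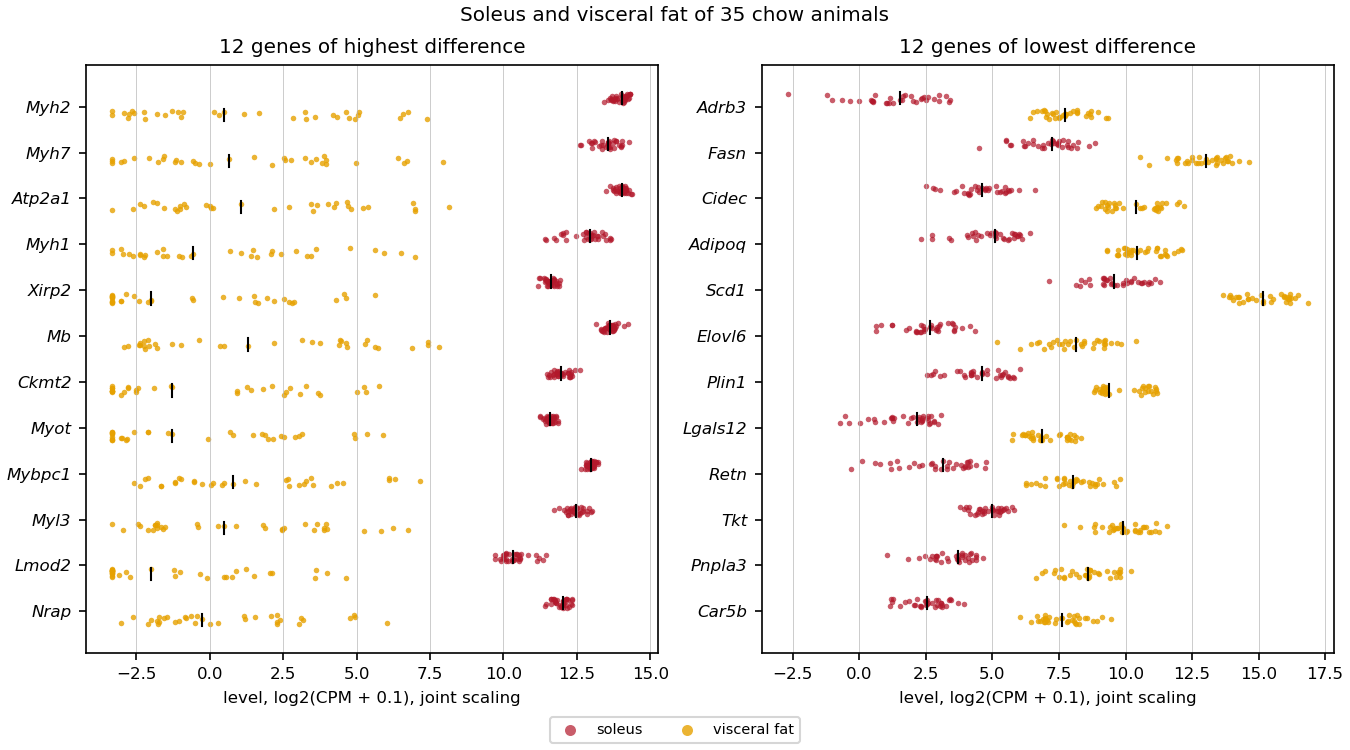
Levels of the 12 genes of highest (left) and lowest (right) difference, among genes at or above the median level, in 35 soleus libraries (red) and 35 visceral fat libraries (yellow), as log2(CPM + 0.1) on the joint scale; black ticks are medians. Muscle genes lie close together in soleus and spread from -3.32 (0 reads) to 8.15 in fat; no gene shown overlaps between the tissues.

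The muscle genes that rose together were looked at for shared promoter letters, in the RefSeq promoters (build GRCm38.p6, from 250 bases before to 50 after the start site). Of the genes tested, 10085 had a promoter in the table; the first one listed per gene was used, and both strands were searched. A CArG box, the site named for serum response factor, stood in 6 of 26 filament promoters (23.1%) and in 1.34% of all promoters. CATTCC, the MCAT core, stood in 10 of 26 (38.5%) and in 12.2% of all. CAGCTG, an E box read by myogenic factors, stood in 10 of 26 (38.5%) and 15.2% of all, and TATAAA in 7 of 26 (26.9%) and 7.58% of all. Over all genes called higher, the shares lay closer to the background, at 1.49% for the CArG box and 16.9% for CAGCTG, whose share was also 16.9% among promoters of genes called lower. The MEF2 site stood in 1.6% of 1807 promoters of genes called higher in soleus, in 0.159% of 1887 promoters of genes called lower and in 0.535% of all. These motifs do not overlap one another in the sequences printed. Such matches describe letters and are not binding sites.

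Shown here are filament promoters that hold a CArG box or a MEF2 site, with 2 adipocyte promoters for contrast. Capitals mark every match to the motifs named above, to the E box of the clock (CACGTG), to the nuclear receptor element (AGGTCA) and to the D box (TTATGTAA); each line runs 5′ to 3′ on the gene's strand.
Acta1 (skeletal actin, chr8:123894726-123895025, minus strand): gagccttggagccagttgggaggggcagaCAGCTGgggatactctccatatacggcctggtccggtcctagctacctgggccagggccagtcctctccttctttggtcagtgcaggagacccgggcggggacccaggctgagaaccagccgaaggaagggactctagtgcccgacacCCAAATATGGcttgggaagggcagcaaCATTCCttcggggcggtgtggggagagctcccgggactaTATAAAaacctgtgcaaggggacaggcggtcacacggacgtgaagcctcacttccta
Myh4 (type IIb myosin, chr11:67237562-67237861, plus strand): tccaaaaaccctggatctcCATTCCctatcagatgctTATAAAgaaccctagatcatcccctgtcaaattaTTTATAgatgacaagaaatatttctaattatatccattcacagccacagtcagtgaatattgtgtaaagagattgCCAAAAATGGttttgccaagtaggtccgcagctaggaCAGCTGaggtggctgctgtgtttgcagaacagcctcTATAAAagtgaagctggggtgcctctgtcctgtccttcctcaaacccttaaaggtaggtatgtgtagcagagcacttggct
Myl3 (slow light chain, chr9:110763428-110763727, plus strand): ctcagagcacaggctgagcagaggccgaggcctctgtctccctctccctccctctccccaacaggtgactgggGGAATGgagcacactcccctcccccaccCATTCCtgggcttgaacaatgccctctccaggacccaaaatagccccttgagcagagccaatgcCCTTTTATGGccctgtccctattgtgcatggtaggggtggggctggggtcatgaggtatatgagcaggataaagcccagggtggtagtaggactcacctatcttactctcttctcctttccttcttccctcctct
Myoz2 (calsarcin 1, chr3:123034938-123035237, minus strand): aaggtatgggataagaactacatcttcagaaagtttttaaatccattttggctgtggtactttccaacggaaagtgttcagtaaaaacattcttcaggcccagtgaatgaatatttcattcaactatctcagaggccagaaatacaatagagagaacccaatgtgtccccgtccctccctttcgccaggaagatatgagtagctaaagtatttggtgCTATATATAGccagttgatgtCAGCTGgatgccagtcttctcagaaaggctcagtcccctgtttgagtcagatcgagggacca
Adipoq (adiponectin, chr16:23146286-23146585, plus strand): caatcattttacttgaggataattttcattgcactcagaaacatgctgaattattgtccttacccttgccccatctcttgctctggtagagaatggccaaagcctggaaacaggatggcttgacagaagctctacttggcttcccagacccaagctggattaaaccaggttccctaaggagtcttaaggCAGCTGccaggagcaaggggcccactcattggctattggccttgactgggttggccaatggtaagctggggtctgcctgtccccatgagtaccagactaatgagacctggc
Plin1 (perilipin 1, chr7:79732727-79733026, minus strand): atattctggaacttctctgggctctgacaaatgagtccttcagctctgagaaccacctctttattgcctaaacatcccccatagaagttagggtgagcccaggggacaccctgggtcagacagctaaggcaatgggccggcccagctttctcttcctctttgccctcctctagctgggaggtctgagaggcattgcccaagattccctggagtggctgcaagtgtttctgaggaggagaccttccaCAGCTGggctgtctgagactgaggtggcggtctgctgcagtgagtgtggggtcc

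In these letters, Acta1 held a CArG box, an MCAT core, an E box CAGCTG and a TATA box within 221 bases of the start. Myl3 held 1 CArG box and 2 MCAT cores. The MEF2 site of Myoz2 began 33 bases before the start. The Adipoq and Plin1 promoters each held 1 CAGCTG and none of the other motifs. The adipocyte promoter of Cidec, not printed, held a CAGCTG 69 bases and an MCAT core 90 bases before the start. Filament promoters were picked for their sites, so the printed sequences do not compare the gene groups.

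Calcium handling and membrane genes were also higher in soleus. Of 17 genes of calcium release and uptake, 16 were called higher and Asph was not called; with the deposited values 15 were called higher. Atp2a1, the fast sarcoplasmic calcium pump, had 13.49, 14.02 and 14.39 in soleus and -3.32, 1.07 and 8.15 in fat. Ryr1, the release channel, differed by 10.36 ± 0.25 (adjusted p 6.38e-24). Pvalb, the calcium buffer of fast fibres, had 3.93, 8.12 and 9.84 in soleus and -3.32, -1.10 and 5.52 in fat, and its ranges overlapped. All 9 genes of the neuromuscular junction and excitability list were called higher (7 with the deposited values), led by the chloride channel Clcn1 (8.55 ± 0.14). The acetylcholine receptor genes Chrna1 and Chrne and the kinase Musk were listed for soleus only. Of 14 genes of the costamere list, 12 were called higher (11 with the deposited values); Xirp2, an actin-binding repeat protein, differed by 12.05 ± 0.35 and Sgca (alpha-sarcoglycan) by 8.37 ± 0.21.

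Ubiquitin ligase and BTB-kelch genes named for atrophy and sarcomere upkeep were called higher in 12 of 12 cases (11 with the deposited values), with a median difference of 9.53. Trim63 (MuRF1) had 7.37, 7.97 and 9.06 in soleus and -3.32, -2.67 and 2.51 in fat. Klhl41, a nemaline myopathy gene product that stabilises thin filaments, differed by 11.03 ± 0.28. Among 18 proteasome subunit genes, by contrast, 6 were called higher, with a median difference of 0.94 on the joint scale and 0.04 in the deposited values, where no subunit was called.

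Transcription factors separated the tissues as well. All 11 tested genes of the myogenic list were called higher in soleus on the joint scale. The count was 7 with the deposited values or equal library totals, and 9 with quantile normalization or in the 15 animals of low B cell level; none was called lower. Myod1, Myf5, Myf6 and Myog were listed for soleus only. Vgll2, a TEAD cofactor, had 7.66, 8.07 and 8.91 in soleus and -3.32, -2.22 and 2.83 in fat. Tbx15 differed by 9.24 ± 0.16. Mef2c had a median of 10.47 in soleus and 6.45 in fat, without overlap; B cells also use this factor, and its highest fat level in the 15 animals of low B cell level was 5.39. Satellite cell genes Pax7, Cdh15, Calcr and Chrdl2 were listed for soleus only. The Pax7 level there was 1.45 to 2.67 deposited log2 CPM, with a median of 1.99.

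Of 14 tested adipogenic factors, 5 were called lower in soleus: Pparg, Cebpa, Srebf1, Nr1h3 and Ebf1; with the deposited values 7 were. Cebpa had 3.23, 4.30 and 5.66 in soleus and 6.54, 7.65 and 9.23 in fat, a difference of -3.64 ± 0.14 (adjusted p 2.06e-16). Pparg, the main regulator of adipocyte genes, had 2.17, 3.53 and 4.31 in soleus and 5.42, 6.21 and 8.05 in fat (-3.12 ± 0.11, adjusted p 1.31e-16). Neither overlapped between the tissues. Cebpb, Klf15 and Rxrg of the same list were called higher in soleus, by 1.83 for Cebpb and 1.38 for Klf15; none of the list was called higher with the deposited scale or in the 15 animals of low B cell level. Wt1 and Tcf21, factors of visceral mesothelium and stroma, were listed for fat only.

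HOX and patterning genes, which mark position along the body and limb, were called in both directions. Of 22 tested, 8 were called higher and 3 lower, against 18.1% and 18.8% of all genes, so the count of lower genes was not above that background. The balance turned with the scale: with the deposited values 5 were called higher and 6 lower, and the median difference was -0.32 against 0.58 on the joint scale. The animals of low B cell level gave 5 and 3. Hoxc10, a posterior limb gene, had 5.73, 6.09 and 6.42 in soleus and -2.88, 0.85 and 3.33 in fat. Hoxc8 had -0.03, 1.02 and 1.89 in soleus and 2.14, 4.71 and 7.31 in fat, a difference of -3.88 ± 0.18 (adjusted p 4.49e-15). The called-higher HOX genes were Hoxa9, Hoxa10, Hoxa11, Hoxc9 and Hoxc10, and the called-lower were Hoxb7, Hoxc6 and Hoxc8. Hoxc11, Tbx4 and Shox2 were listed for soleus only, and Hoxb4, Hoxb5, Hoxb6 and Hoxd10 for fat only. Lbx1, which directs limb muscle precursors, differed by 7.05 ± 0.14.

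Mitochondrial energy genes were higher in soleus as a group, by smaller margins than contractile genes. Of 34 nuclear-encoded respiratory chain genes, 32 were called higher (30 with the deposited values) and 2, Cox6a1 and Cox8a, lower. The median difference was 2.83 on the joint scale and 1.92 in the deposited values. Of 19 TCA cycle genes, 18 were called higher (14 in the deposited values), with a median of 2.49. Pcx, pyruvate carboxylase, which feeds citrate export for lipid synthesis, was the exception with 5.48, 6.24 and 7.22 in soleus and 7.58, 9.97 and 10.93 in fat (-3.52 ± 0.14, adjusted p 1.61e-16).

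Fatty acid oxidation genes were called higher in 16 of 19 cases on the joint scale and in 8 with the deposited values. Acadvl, the very-long-chain acyl-CoA dehydrogenase, differed by 2.95 ± 0.09. Cpt1a, the widely used form of the gate enzyme of mitochondrial fatty acid import, was called lower (-1.47 ± 0.08), and its muscle form Cpt1b was listed for soleus only, at -0.13 to 2.04 deposited log2 CPM. All 7 mitochondrially encoded genes in both tables were called higher on the joint scale, with a median of 2.10, but 2 of 7 in the deposited values and 1 of 7 with quantile normalization. Among regulators of this programme, 8 of 11 were called higher (6 with the deposited values). Ppargc1a (PGC-1 alpha) had 6.38, 7.26 and 9.43 in soleus and 1.07, 2.04 and 4.48 in fat, and its muscle-restricted partner Perm1 differed by 10.20 ± 0.22.

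In many pathways the balance between the members of a gene pair differed between the tissues. Pairs were compared as the log2 ratio of the muscle form to the other form within each library, a measure free of library scaling. It compares tissues, not the size of the 2 forms, since gene length differs. Of 32 pairs, 31 had both forms in both tables. The ratio was higher in soleus in all 35 animals for all 31, and its ranges did not overlap for 29. Each pair was fixed with its muscle form on top, so this direction was largely set by the choice of pairs. The count was not set against other gene pairs and is no separate support.

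For the fatty acid binding pair Fabp3 over Fabp4, the log2 ratio was -0.17, 0.79 and 1.72 in soleus (lowest, median, highest) and -17.34, -12.00 and -7.48 in fat. For creatine kinase, Ckm over Ckb, it was 8.17, 9.54 and 10.68 in soleus and -7.98, -1.98 and 2.74 in fat. For glycogen phosphorylase, Pygm over Pygl, it was 5.64, 7.98 and 10.54 in soleus and -8.69, -5.34 and -1.58 in fat. In each of these 3 pairs the ratio spread more widely over the fat libraries than over the soleus libraries. For phosphofructokinase, Pfkm over Pfkl, the ratio was 6.49 to 7.49 in soleus and -3.14 to -0.50 in fat. Among cytochrome oxidase subunits, Cox6a2 over Cox6a1 had a median of 4.86 in soleus and -7.22 in fat, Cox7a1 over Cox7a2 of 0.77 in soleus and -4.92 in fat, and Cox8b over Cox8a of 3.20 in soleus and -3.20 in fat. For the elongation factor pair Eef1a2 over Eef1a1, the median was 2.10 in soleus and -9.75 in fat. For acetyl-CoA carboxylase, Acacb (the form at mitochondria that restrains fatty acid import) over Acaca (the lipid synthesis form), the ratio was 2.58 to 6.03 in soleus and -2.87 to -0.10 in fat.

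The 2 pairs that overlapped were the glucose transporters and the uncoupling proteins. Slc2a4 (the insulin-responsive GLUT4) over Slc2a1 had 4.42, 5.18 and 5.79 in soleus and 0.05, 2.97 and 4.98 in fat. Both tissues carry GLUT4; its own level was 9.35, 9.60 and 9.98 in soleus and 5.11, 7.0 and 8.30 in fat. Ucp3 over Ucp2 had medians of 0.96 in soleus and -3.33 in fat. Ucp1, the thermogenic protein of brown fat, was listed for fat only, at -3.81 to 7.96 deposited log2 CPM with a median of -2.11, close to the -3.81 of 0 reads.

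Glycolysis and glycogen genes were called in both directions: 18 of 27 were called higher and 7 lower (16 and 8 with the deposited values). The lower ones on the joint scale were Pfkl, Pfkp, Pgam1, Eno1, Pygl, Pygb and Gys2, each the counterpart of a muscle form. Pgam2, muscle phosphoglycerate mutase, had 9.49, 9.96 and 10.66 in soleus and -3.32, -1.17 and 4.45 in fat. Pdk4, which holds back pyruvate oxidation and is not on the list, had 9.79, 11.12 and 13.12 in soleus and 4.32, 6.30 and 8.62 in fat; it was chosen after its values were seen. Among phosphagen genes, Ckmt2 (mitochondrial creatine kinase) differed by 12.01 ± 0.35 and Ckm by 11.13 ± 0.41. Ckb had 3.15, 4.08 and 5.44 in soleus and 3.16, 4.93 and 8.27 in fat and was not called.

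**Figure D3:**
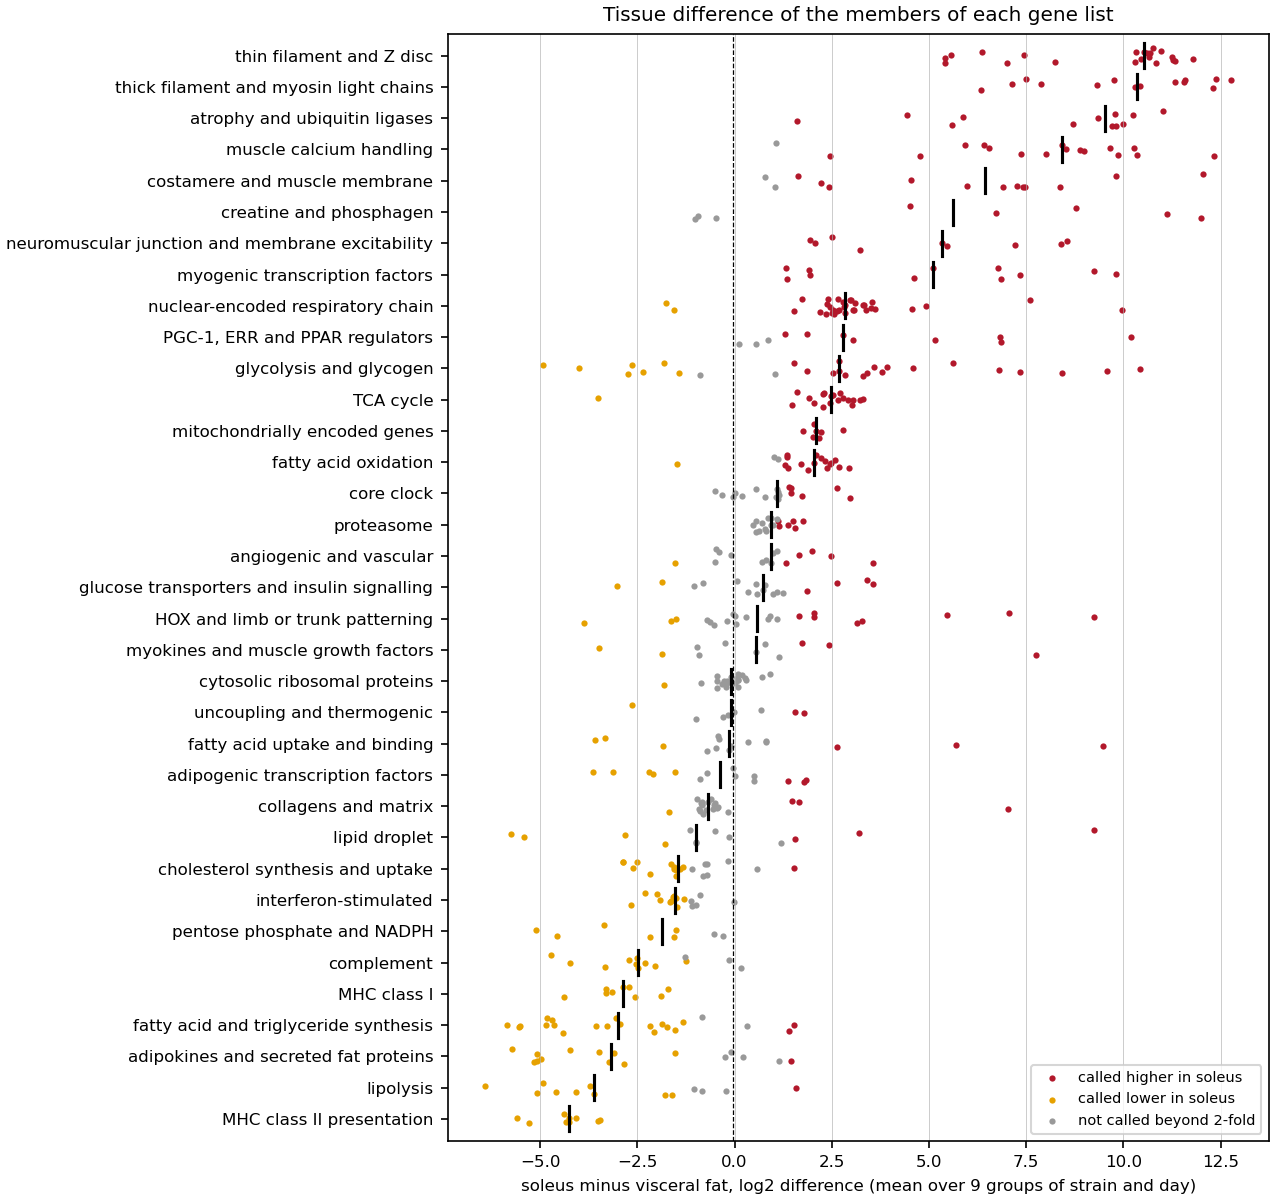
Log2 difference (soleus minus visceral fat) of each tested gene in 35 pathway lists, ordered by list median (black tick). Red genes were called higher in soleus, yellow genes lower and grey genes neither; the dashed line is the median of all genes, -0.03. Contractile lists reach 12.78 at the right, and lipid and immune lists lie at the left.

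Most genes of fat synthesis and release were lower in soleus. Of 22 genes of fatty acid and triglyceride synthesis, 18 were called lower (19 with the deposited values), with a median difference of -3.0 on the log2 scale. Fasn, fatty acid synthase, had 4.49, 7.24 and 8.85 in soleus and 10.56, 13.02 and 14.64 in fat. Scd1, stearoyl-CoA desaturase, had 7.12, 9.59 and 11.30 in soleus and 13.65, 15.17 and 16.86 in fat. Neither overlapped between the tissues, and their levels were 58-fold and 46.8-fold higher in fat (adjusted p 5.73e-21 and 2.38e-21). Acacb and Gpam were called higher in soleus on the joint scale and neither with the deposited values.

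Lipogenic supply lines moved the same way. Of 8 genes of the pentose phosphate pathway and NADPH supply, 6 were called lower (8 with the deposited values). Tkt, transketolase, had 3.78, 4.97 and 5.82 in soleus and 7.69, 9.92 and 11.56 in fat. G6pdx, the entry enzyme of the pathway, differed by -4.56 ± 0.10 (adjusted p 2.32e-23) and Slc25a1, the citrate exporter, by -4.85 ± 0.15. Elovl6, which lengthens palmitate, had 0.61, 2.64 and 4.35 in soleus and 5.17, 8.15 and 10.40 in fat. Of 20 cholesterol genes, 12 were called lower and Fdft1 higher, with a median of -1.46; with the deposited values 17 were called lower and none higher. Lss, lanosterol synthase, differed by -2.87 ± 0.10. Car5b, a mitochondrial carbonic anhydrase among the 12 genes of lowest difference, had 33.8-fold higher levels in fat.

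Of 13 lipolysis genes, 9 were called lower (11 with the deposited values). Adrb3, the adrenergic receptor of adipocytes, had -2.69, 1.55 and 3.41 in soleus and 6.41, 7.71 and 9.32 in fat. It had the lowest difference among genes at or above the median level with 1 sign in all pairs, -6.42 ± 0.24 (adjusted p 2.19e-18; lower in 35 of 35 animals), or 85.5-fold. Pnpla3, a lipid droplet lipase family member, had 1.03, 3.69 and 4.64 in soleus and 6.63, 8.60 and 10.19 in fat. Pde3b, which ends the cAMP signal under insulin, differed by -4.60 ± 0.13. Pnpla2, the first triglyceride lipase, was not called.

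Of 13 lipid droplet genes, 3 were called higher, 4 lower and 6 neither, against 18.1% and 18.8% of all genes called higher and lower. With the deposited values 2 were called higher and 8 lower, and in the 15 animals of low B cell level 3 and 6. Plin1, the adipocyte coat protein, had 2.54, 4.60 and 6.05 in soleus and 8.81, 9.38 and 11.18 in fat. Cidec, which fuses droplets into 1 large locule, had 2.5, 4.61 and 6.61 in soleus and 8.90, 10.40 and 12.19 in fat. Plin5, the coat protein of oxidative tissue, was called higher in soleus (3.19 ± 0.16), as were Fitm1 (9.26 ± 0.18) and Plin3. Lgals12, a galectin on adipocyte droplets, was 40.1-fold higher in fat. Of 15 genes of fatty acid uptake and binding, 3 were called higher, 3 lower and 9 neither. These counts are near the shares of all genes, 18.1% and 18.8%. With the deposited values 3 were called higher and 7 lower, against 1160 and 5629 of 13151 genes. Fabp3, the fatty acid binding protein of muscle, differed by 9.47 ± 0.29 and the acyl-CoA synthetase Acsl6 by 5.69 ± 0.27, while Fabp4, the binding protein of adipocytes, differed by -3.60 ± 0.12 and Fabp5 by -3.33 ± 0.11. Among the genes not called, the lipoprotein lipase Lpl had 11.42, 12.06 and 12.46 in soleus and 10.76, 12.02 and 13.92 in fat, and the transporter Cd36 differed by -0.40 ± 0.12.

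Of 16 genes of secreted fat proteins, 11 were called lower in soleus and Nampt higher; with the deposited values Nampt was not called. Adipoq, adiponectin, had 2.33, 5.09 and 6.42 in soleus and 9.31, 10.44 and 12.14 in fat (-5.73 ± 0.19, adjusted p 7.83e-20). Retn, resistin, had -0.32, 3.13 and 4.77 in soleus and 6.28, 8.04 and 9.78 in fat. Lep, leptin, differed by -4.99 ± 0.19 and the growth factor Nrg4 by -5.08 ± 0.16. These transcripts varied between soleus libraries, with an SD of 1.05 for Adipoq and 1.36 for Retn against 0.24 for Myh2. Adipocyte markers in soleus summed to 2665 to 8646 CPM beside them. That sum also counts Car3 and Plin4, which were not called, so it does not measure adipocyte transcripts alone. The part of adipocytes in the soleus pieces was not tested. Of 11 muscle-secreted and growth factors, 3 were called higher (Fndc5, Bdnf and Fst), 2 lower (Igf1 and Angptl4) and 6 neither. The shares of all genes were 18.1% and 18.8%, so this list as a whole is not set apart by its counts. With the deposited values 2 were called higher and 4 lower. Igf1 differed by -1.87 ± 0.11 and Angptl4 by -3.48 ± 0.17. Fndc5 (the irisin precursor) had 8.27, 8.85 and 9.18 in soleus and -1.84, 1.57 and 3.22 in fat, and Mstn and Ostn were listed for soleus only.

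Adipocyte genes stood further below in soleus where lymphoid transcripts were few in fat. In the 15 animals of low B cell level the difference was -6.44 for Adipoq, -6.08 for Plin1 and -6.34 for Fasn, against -5.73, -5.42 and -5.86 in all 35. The adipocyte marker list had a median of -4.67 in those 15 animals, with 12 of 12 called lower, and of -3.94 in all 35, with 10 of 12 (12 with the deposited values).

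Matrix genes differed little on the joint scale: of 21, 3 were called higher (Col1a1, Col1a2 and Col22a1) and Col15a1 lower. In the deposited values 1 was called higher and 17 lower, and quantile normalization gave 1 and 10. In the 15 animals of low B cell level, 1 was called higher and 11 lower, with a median of -1.26. The calls of the list thus depend on the scale and on the animals used. Col22a1, a collagen of the myotendinous junction, had 4.56, 5.88 and 7.26 in soleus and -3.32, -0.66 and 1.04 in fat. It was called higher on the joint scale and with the deposited values. Col1a1 had 6.11, 9.16 and 11.21 in soleus and 6.35, 7.54 and 8.75 in fat, and was not called in the 15 animals of low B cell level (adjusted p 0.728). Cytosolic ribosomal protein genes had a median difference of -0.08, with Rpl3 lower (-1.82 ± 0.10, adjusted p 1.15e-08) and 22 of 23 not called; with the deposited values the median was -0.99 and 6 were called lower. In the 15 animals of low B cell level the median was 0.63, 2 of the 23 were called higher and Rpl3 was not called.

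Mesothelial genes were lower in soleus in every case tested, 6 of 6, with a median of -4.30. Upk3b, a mesothelial uroplakin, had -3.32, -1.44 and 3.70 in soleus and 5.12, 6.77 and 8.52 in fat, with a difference of -8.27 ± 0.35 and of -8.58 in the 15 animals of low B cell level. Msln, mesothelin, differed by -5.06 ± 0.19. Upk1b, Lrrn4 and Wt1 were listed for fat only. In those 15 animals, 6 of 6 were also called lower, with a median of -5.14.

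Immune genes fell into 2 kinds. B and T cell genes were called lower in soleus in the 35 animals (11 of 11 and 7 of 7, medians of -5.81 and -5.44), and 0 of either were called in the 15 animals of low B cell level, where the medians were -1.17 and -1.34. Those 15 animals were chosen by low levels of these same 11 B cell markers in fat. The B cell result in them, that of Ms4a1 included, was therefore set by the choice. T cell genes were not used in it. Ms4a1 (CD20) had -3.32, -1.83 and 2.5 in soleus and -0.58, 7.22 and 8.43 in fat; in the fat of those 15 animals it reached 2.79 at most. The lymph node stroma gene Glycam1 had a difference of -5.00 ± 0.77 in all 35 animals and of 0.54 in the 15, which reverses its sign. The lymph node stroma markers as a whole had a median difference of -4.86 in the 35 animals and of -0.73 in the 15. Of these markers, Cr2 is also on the B cell list that chose the 15 animals.

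Macrophage and complement genes were called in both sets of animals. All 9 macrophage markers were called lower in soleus both in 35 and in the 15 animals, with medians of -2.48 and -2.10. Csf1r, the macrophage growth factor receptor, had 2.70, 4.40 and 5.58 in soleus and 6.06, 6.96 and 7.94 in fat. Of 13 complement genes, 10 were called lower in both sets (11 with the deposited values); C3, the central component, had 4.36, 6.27 and 8.90 in soleus and 10.19, 10.97 and 12.04 in fat. For MHC class II, 9 of 9 genes were called lower in all 35 animals (median -4.26) and 8 in the 15 (median -2.49). H2-Aa had 2.85, 4.30 and 5.74 in soleus and 6.58, 9.28 and 10.33 in fat. Of 9 MHC class I genes, 9 were called lower in all 35 animals (median -2.86) and 6 in the 15 (median -1.75). B2m, their shared light chain, did not follow that smaller median, with differences of -3.30 in the 35 and -3.39 in the 15.

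Of 16 interferon-stimulated genes, 11 were called lower in all 35 animals (15 with the deposited values) and 6 in the 15 animals of low B cell level. The medians were -1.53 in all 35 animals, -2.43 with the deposited values and -1.09 in the 15.

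The 8 endothelial markers had differences between -1.06 and 1.09, with a median of 0.71 on the joint scale and -0.19 in the deposited values. Of 15 angiogenic and vascular genes, 5 were called higher (Flt1, Vegfa, Vegfb, Angpt1 and Aqp1) and Cav1, of caveolae, lower; in the deposited values 2 were called higher and 4 lower. Angpt1, which steadies vessels, had 5.43, 6.00 and 7.54 in soleus and 0.12, 2.69 and 5.04 in fat.

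The tissue difference itself varied with strain. An F test over the 3 strain means passed for 5358 genes (40.7%). Between pairs of strains, 4065 genes passed for DBA/2J against C57BL/6J, 3625 for BALB/cJ against DBA/2J and 1635 for BALB/cJ against C57BL/6J. DBA/2J was also the strain with few lymphoid fat libraries. In the 15 animals of low B cell level, 2748 genes (20.9%) passed, of which 1960 also passed in all 35. That fit held strain means without the day, so strain and day may be mixed in it. Only 2 C57BL/6J animals stood for their strain there. With the B cell level as a covariate, 3636 of the 5358 passed. Reads of all strains were aligned to build GRCm38, which is of C57BL/6J origin, and how far sequence differences enter was not tested. Of the 4850 called genes, 4836 had 1 sign in all 3 strains, a count largely set by calling these genes in the same animals.

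The strain calls were spread unevenly over the gene lists. They took 18 of 21 matrix genes, 13 of 18 core clock genes, 13 of 23 ribosomal protein genes and 10 of 16 secreted fat proteins, against 40.7% of all genes. In the 15 animals of low B cell level, those counts were 3, 6, 0 and 2, against 20.9%. Contractile and nuclear-encoded mitochondrial lists had few: 2 of 14 for the thick filament, 3 of 21 for the thin filament, 2 of 19 for the TCA cycle, 1 of 34 for the nuclear-encoded respiratory chain and 1 of 19 for fatty acid oxidation. These counts were 0, 2, 2, 4 and 4 in the 15 animals. Of the 7 mitochondrially encoded genes, 3 passed in all 35 animals and 0 in the 15. Contractile genes spread widely over the fat libraries, which limits their strain calls. The SE within a strain was 0.64 to 0.68 for Myh2, against 0.07 to 0.08 for Nup133. For Myh2, BALB/cJ and C57BL/6J differed by 1.76 with a limma adjusted p of 0.237. Few calls in the contractile lists thus do not show that their differences are equal between strains.

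Of the 6 genes of smallest p, 5 are described here: Nup133, Tpm3-rs7, Fam20c, Myl12b and Knop1, all of which also passed in the 15 animals (adjusted p 0.000365 or below). Fam20c, a kinase of secreted proteins (chromosome 5, 138754514 to 138810077), turned its direction between strains. In DBA/2J it averaged 4.40 ± 0.15 in soleus and 6.92 ± 0.90 in fat (SD, n = 12). In BALB/cJ it averaged 5.95 ± 0.41 in soleus and 3.49 ± 0.44 in fat (SD, n = 12), and in C57BL/6J 4.60 ± 0.17 and 4.59 ± 0.64 (SD, n = 11). The fitted difference, in which each day of a strain has equal weight, was -2.51 ± 0.18 in DBA/2J, 2.46 ± 0.18 in BALB/cJ and -0.03 ± 0.19 in C57BL/6J (SE), with an adjusted F test p of 1.99e-13, and no DBA/2J soleus library reached the lowest DBA/2J fat library.

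Nup133, a nuclear pore protein (chromosome 8, 123897123 to 123949265), differed by strain in soleus. Its soleus level averaged 5.56 ± 0.23 in DBA/2J, 4.16 ± 0.14 in BALB/cJ and 6.14 ± 0.25 in C57BL/6J. Fat averaged 4.21 ± 0.16, 4.24 ± 0.22 and 4.19 ± 0.19 in the same order (SD). Its neighbour Acta1 lies 2372 bases away on the same strand, and the tissue difference of Acta1 was 10.72 in DBA/2J, 10.65 in BALB/cJ and 10.62 in C57BL/6J. Knop1 (chromosome 7, 118842222 to 118856254) averaged 5.83 ± 0.09 in DBA/2J soleus, 4.53 ± 0.16 in BALB/cJ soleus and 4.88 ± 0.09 in C57BL/6J soleus, while its fat means were 4.99, 5.03 and 4.91. Vps35l overlaps it by 744 bases on the other strand, and whether reads were counted by strand is not given in the sources used here.

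Myl12b, a regulatory light chain of non-muscle myosin (chromosome 17, 70973133 to 70990890), averaged 6.62 ± 0.13 in DBA/2J soleus, 6.83 ± 0.13 in BALB/cJ soleus and 5.00 ± 0.12 in C57BL/6J soleus. Its fat means were 7.39, 7.45 and 7.35 in the same order. Tpm3-rs7, a Tpm3-related sequence (chromosome 14, 113314608 to 113316754), averaged 5.67 ± 0.66 in DBA/2J fat, 5.92 ± 0.72 in BALB/cJ fat and 1.16 ± 0.50 in C57BL/6J fat, with soleus means of 6.06, 5.89 and 5.18. In soleus too the C57BL/6J libraries stood lowest, at 4.77 to 5.50, against 5.80 to 6.26 in DBA/2J and 5.70 to 6.22 in BALB/cJ. Both genes have a close relative, Myl12a at a distance of 2766 bases and Tpm3. Whether reads were split between such copies was not tested, and the values of both genes are given as uncertain.

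**Figure D4:**
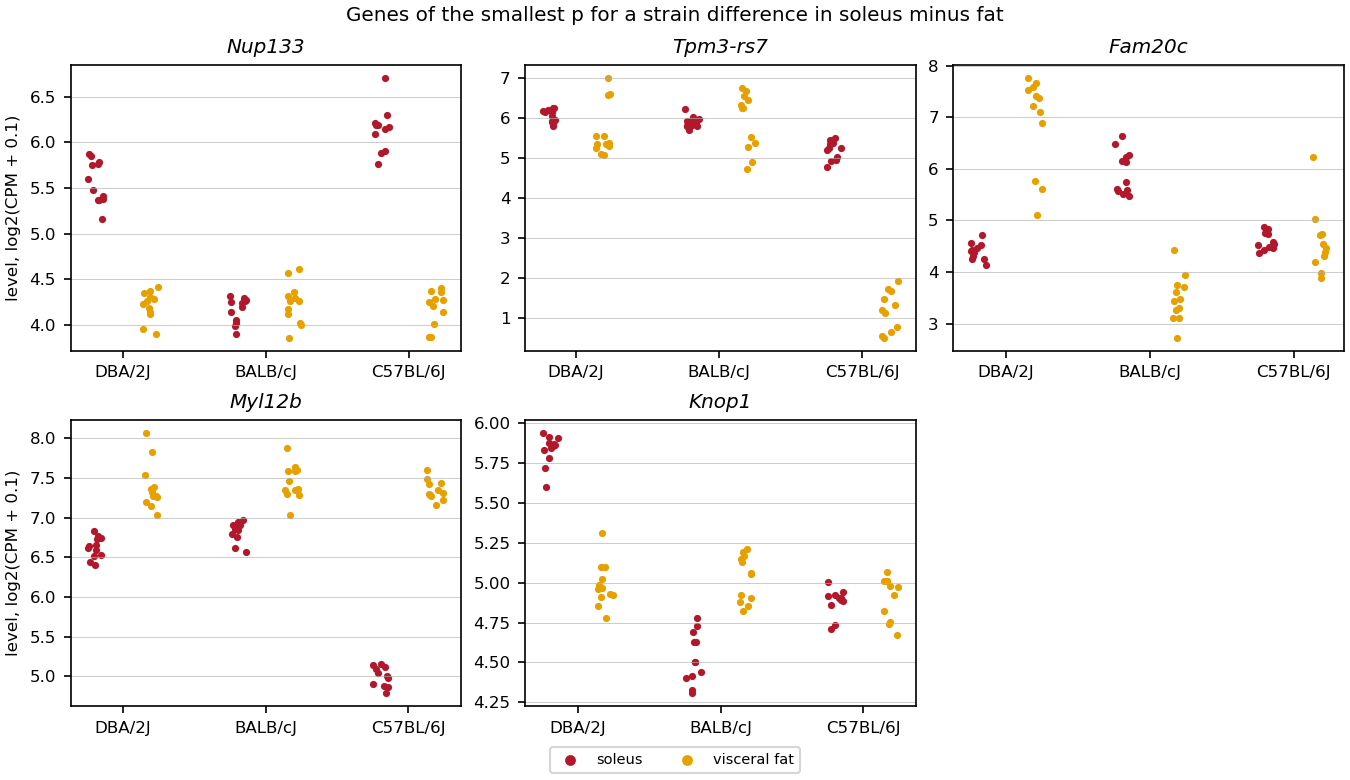
Levels, as log2(CPM + 0.1), of 5 of the 6 genes of smallest p for a strain difference, in soleus (red) and visceral fat (yellow) of DBA/2J (n = 12), BALB/cJ (n = 12) and C57BL/6J (n = 11) animals. The strains stand apart mainly in soleus for Nup133, Myl12b and Knop1, and in both tissues for Fam20c and Tpm3-rs7. For Tpm3-rs7 alone of these last, the C57BL/6J libraries are lowest in fat and in soleus.

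Few tissue differences passed the test for a change with the day of sampling. The F test over the 3 day means passed for 27 genes (0.205%). Leaving out 1 animal moved this count to between 3 and 234, and with the fibre marker level of the fat library as a covariate 1 gene passed. Wide errors of muscle genes limit these calls too. Atp2a1 differed by 13.31 ± 0.64, 9.76 ± 0.64 and 13.90 ± 0.68 at days 5, 13 and 33 (SE), with an adjusted F test p of 0.0567. Few calls thus do not show that the differences are equal between days. The 4 genes of smallest p were Selenos, Ccndbp1, Mb and Myl3. Mb (myoglobin) differed between the tissues by 12.93 ± 0.64, 8.82 ± 0.64 and 14.29 ± 0.67 at days 5, 13 and 33 (SE; adjusted F test p 0.019), while the median fast fibre sum in fat was 208.6, 418.5 and 243.7 CPM. Selenos, a selenoprotein of the endoplasmic reticulum, had 0.09 ± 0.05, 0.63 ± 0.05 and 0.36 ± 0.06 (adjusted p 0.00465). The highest counts came without DBA/2J animal 2RC230 (106) and without C57BL/6J animals 1RC254 (234) and 1RC251 (145), and the lowest without DBA/2J animal 2RC228 and without C57BL/6J animals 1RC228, 1RC229 and 1RC252 (3 each).

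Finally, it was asked whether an animal high for a gene in soleus was also high for it in fat. Levels were taken as deviations from the mean of the animal's strain and day, and soleus values were exchanged among animals of 1 strain and day in 100000 draws of a permutation test. No gene passed the adjusted threshold (0 of 13151, 0%). At an unadjusted permutation p under 0.05, 562 genes (4.27%) had a positive r and 356 (2.71%) a negative one. Pearson's r had a median of 0.004 over all genes.

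The genes of highest r were mostly of the circadian clock, the transcription loop in which Arntl and Clock drive Per, Cry and Nr1d genes that in turn repress them. Of the 10 genes of highest r, 6 were on the core clock list: Dbp, Nr1d2, Nr1d1, Npas2, Ciart and Bhlhe40. These were chosen after their values were seen. Dbp, a clock output factor, had r = 0.82 and rho = 0.77 over 35 animals (permutation p 5e-05 and 0.00014; adjusted p 0.279 and 0.444). Without the 2 animals farthest from the median in soleus, r was 0.81. Nr1d2, a repressor of Arntl, had r = 0.76 and rho = 0.75 (permutation p 0.00017 and 0.00041; adjusted p 0.279 and 0.486), and r = 0.73 without 2 animals. Nr1d1 had r = 0.71 and rho = 0.68 (permutation p 0.00013 and 0.00077, adjusted p 0.279 and 0.628). Ciart, a Clock repressor, had r = 0.69 and rho = 0.68 (permutation p 0.00015 and 0.00025, adjusted p 0.279 and 0.444). Without 2 animals, r was 0.63 for Nr1d1 and 0.70 for Ciart. It fell from 0.70 to 0.55 for Npas2 and from 0.68 to 0.58 for Bhlhe40.

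Of all 18 clock genes, 17 had r above 0, against 50.7% of all genes, and their median r was 0.52. Clock genes cycle together, so they are not 18 independent values, and the hour of sampling is not given in the sources used here. Within strains, the r of Dbp was 0.34 in DBA/2J, 0.87 in BALB/cJ and 0.90 in C57BL/6J, and that of Nr1d2 0.17, 0.92 and 0.81. Soleus deviations of Dbp were narrow in DBA/2J (-0.48 to 0.36) and wider in BALB/cJ (-1.47 to 1.43) and C57BL/6J (-1.39 to 1.60).

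The levels of clock genes also differed between the tissues for some members: 6 of 18 were called higher in soleus on the joint scale and 2 higher and 1 lower in the deposited values. Nfil3 had 4.32, 5.77 and 7.73 in soleus and 1.62, 2.81 and 5.41 in fat; it was called on both scales. Dbp differed by 1.10 ± 0.09 and was not called. The E box CACGTG, the site of the Clock and Arntl pair, stood in 5 of 15 clock promoters (33.3%) and 10.2% of all. The promoter of Ciart is shown because it held 3 of them, in capitals, at 116, 58 and 44 bases before the start.
Ciart (chr3:95882179-95882478, minus strand, GRCm38.p6): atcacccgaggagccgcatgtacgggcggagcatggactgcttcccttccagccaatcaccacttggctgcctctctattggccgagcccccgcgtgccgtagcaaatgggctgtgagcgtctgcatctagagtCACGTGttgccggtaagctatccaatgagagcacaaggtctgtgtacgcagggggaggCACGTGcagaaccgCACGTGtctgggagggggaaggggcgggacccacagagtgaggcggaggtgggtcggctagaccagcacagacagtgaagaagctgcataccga

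**Figure D5:**
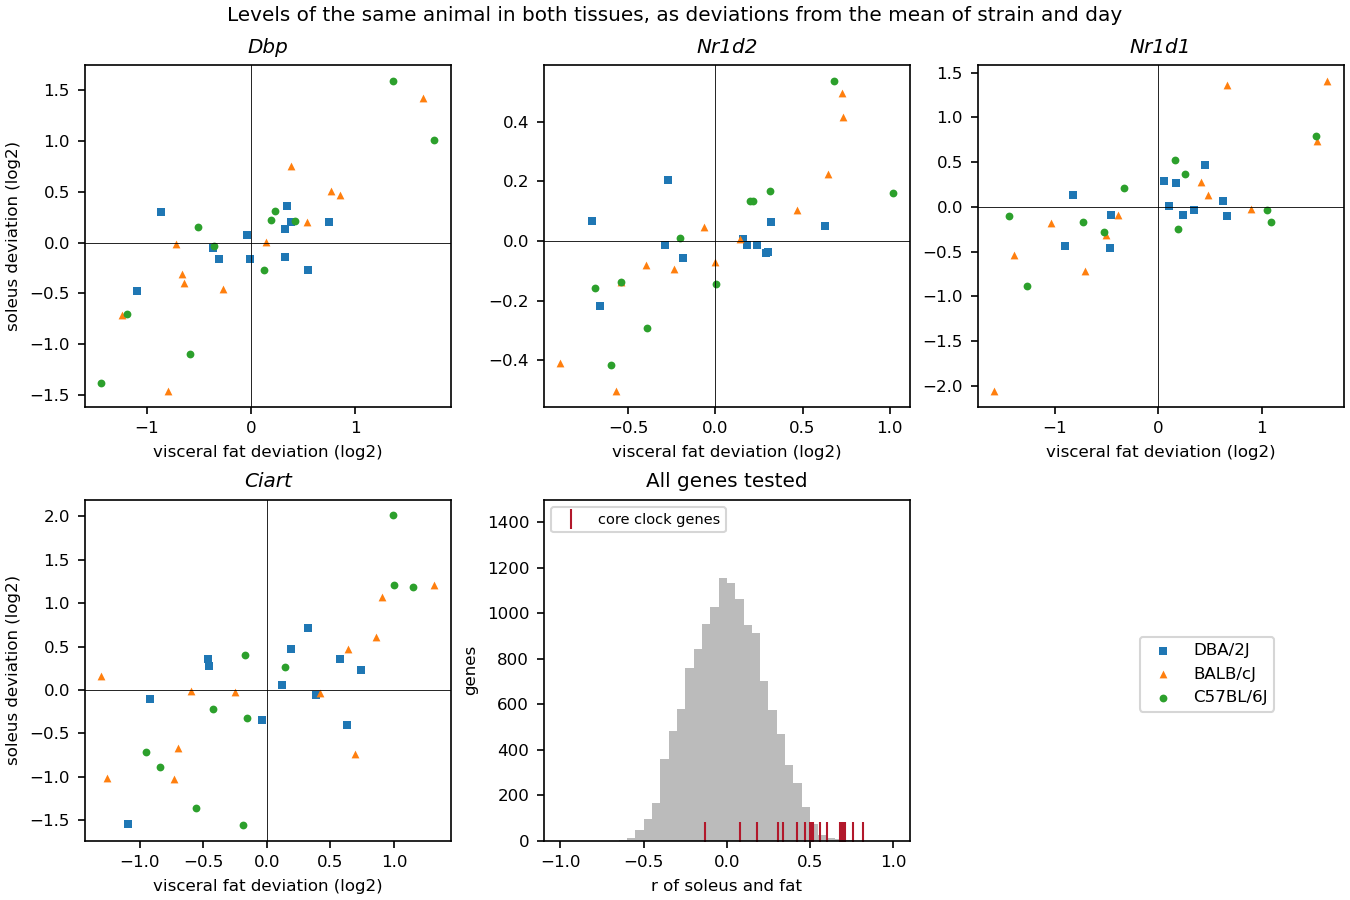
Deviations of 4 clock genes from the mean of strain and day in soleus (vertical axis, log2) against visceral fat (horizontal axis, log2), 1 point per animal with a symbol per strain, and a histogram of r over all 13151 genes with the 18 core clock genes as red ticks. Dbp (r = 0.82) and Nr1d2 (r = 0.76) rise from lower left to upper right, and all clock ticks but 1 lie right of 0.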

How the data were processed

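Messenger RNA libraries were prepared with a stranded kit and sequenced as single reads, per the labels' protocols. Per the submitters' processing notes, STAR 2.5.3a, edgeR and build GRCm38 were used; what each was used for is not stated there. The authors deposited 1 table of log2 CPM per tissue, each with its own scaling and gene filter. The column headers are shifted by 1 column, and columns were matched to samples by name after this shift. The deposited log2 values were turned back to CPM less the value of 0 reads; 100% of values under 2000 reads came out as whole reads within 0.05 reads. Because the unit is a log scale, limma and no count model was used.

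Genes in both tables were scaled with 1 median-ratio factor per library over 12600 genes and logged with a pseudocount of 0.1 CPM. The factors differed by 0.91 (log2) between the tissues on average. Differences within animals, which the labels pair by animal number, were fitted with 9 strain and day means in limma 3.58.1 (R 4.3.3) and tested with treat against 2-fold, with Benjamini-Hochberg adjustment. Strain and day were tested with F tests in the same fit. Deviations of the 2 tissues of an animal correlated at -0.43 to 0.41 over genes (median 0.01). Permutation tests used numpy 2.4.6 and were two-sided. The steps were tested on simulated data. Symbols, coordinates and neighbours are from GENCODE for GRCm38. Fold changes of low genes are understated by the pseudocount. Counting error was not measured, and reads carry no molecular identifiers. It weighs most on genes of few reads, such as Lmod2 in fat (lowest -3.32, median -1.98).

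Genes were named by rule: the 12 highest and 12 lowest differences with 1 sign in all pairs among genes at or above the median level, the 6 genes of smallest p for strain and 4 for day, up to 4 of each list, and all gene pairs. Genes named beyond these were chosen after their values were seen. The samples, gene lists and rules were chosen with earlier results of these data known. A few genes that this rule or the lists include are not reported here.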

Additional observations from a re-analysis of the deposited data

Results flagged for a closer look

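Among 192 groups of 4 animals tested for a far value, 11 had 1 animal far from the other 3; chance flags about 1 in 20 groups, here 9.6. Of these, 6 came from 1 C57BL/6J animal of day 13, 1RC254. Its difference (soleus minus fat, log2) was 14.97 for Myh2, 14.95 for Myh7, 15.10 for Atp2a1, 14.41 for Mb, 14.24 for Ckmt2 and 13.90 for Myl3, while the 3 other animals of its group lay between 7.60 and 10.37 for these genes. Its fat library was the only 1 of its group below the B cell bound of 4, with a mean level of B cell markers of 2.54 against 7.46 to 7.95 in the 3 others (deposited log2 CPM). The level of Ckmt2 was 11.74 in its soleus, against 11.56 to 11.80 in the others, and -2.50 in its fat, against 3.26 to 3.75. The part of the fat library's cell content in these values was not tested. In BALB/cJ animal 3RC251 of day 5, the differences of Ckmt2 (10.07) and Lmod2 (8.97) were lower than in the other 3 animals (14.43 to 15.63). Ckmt2 was 14.51 in DBA/2J animal 2RC203 of day 5, against 15.15 to 15.22 in the others. Mybpc1 was 6.53 in C57BL/6J animal 1RC251 of day 5, against 9.74 to 10.26, and Fasn was -3.66 in BALB/cJ animal 3RC255 of day 13, against -5.04 to -4.84.

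The tissue difference itself differed between strains, by limma's F test, for Nup133, Tpm3-rs7 and Fam20c (adjusted p 1.99e-13 each), Myl12b (adjusted p 3.3e-12) and Knop1 (adjusted p 1.65e-11). It differed between days for Selenos (adjusted p 0.00465), Ccndbp1 (adjusted p 0.00549), Mb (adjusted p 0.019) and Myl3 (adjusted p 0.0197). Ccndbp1 had differences of -0.20, -0.29 and 0.32 on days 5, 13 and 33, and Myl3 of 12.24, 9.05 and 13.39. The median fast fibre sum in fat, which also counts Tpm1, varied with the day beside Mb and Myl3, with the values given above. The part of fibre transcripts was not tested beyond the covariate.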

How the results depend on the processing

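The count beyond 2-fold was 4850. It was 1160 higher and 5629 lower in soleus with the values as deposited, and 1179 and 5501 with equal library totals; leaving out 1 animal gave 4793 to 4876 in all, 2352 to 2403 higher and 2435 to 2483 lower. The strain count of 5358 was 2748 without the animals of high B cell level and 4415 to 6906 without 1 animal. The day count of 27 was 44 with equal library totals, 11 with quantile normalization, 47 with animal 1RC210 added, 5 with the B cell covariate, 1 with the fibre covariate and 3 to 234 without 1 animal. Without the replicate block that pairs tissues within animals, it was 43, and 4851 genes passed beyond 2-fold. The cause was not tested. Of 172 named genes, 16 lost their call with the deposited values, 15 with equal library totals and 10 with quantile normalization. Without the animals of high B cell level 22 did and Glycam1 reversed, to a difference of 0.54. The planned B cell bound, 2 above the median, left out 0 animals; the bound of 4 and both covariates were chosen after seeing the data. Genes at 0 reads in some fat libraries have differences set in part by the pseudocount.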
